A study of Mus musculus with 12 samples.

Results

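The genes described here are 10 markers of excitatory neurons of the deep cortical layers: Fezf2, Bcl11b, Tle4, Tbr1, Foxp2, Crym, Etv1, Syt6, Nxph4 and Ctgf, the last listed as Ccn2 by its current symbol. They were taken by name as known layer 5 and 6 markers, with earlier results of these data known, and all 10 were found among the 17283 genes of the deposited table. Each was also among the 13586 genes tested, which had an FPKM that reached 1 in 3 libraries or more out of 12. FPKM is the fragment count scaled by the exon length of the gene and by library depth. Foxp2 passed with 4 libraries at or above 1, of which 3 were from BTBR mice.

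RNA of the medial prefrontal cortex (mPFC) was sequenced in 4 groups of 3 libraries. BTBR ASIV were mice of the inbred strain BTBR, a model of autism whose animals lack the corpus callosum, treated with ASIV, astragaloside IV, which is a triterpenoid glycoside from the root of Astragalus. BTBR vehicle were mice of the same strain given the DMSO solvent. C57 ASIV and C57 vehicle were C57 mice, labelled wild type, given ASIV and DMSO. All animals were injected intraperitoneally for 7 days; the labels used here give no sex, age, dose or number of animals per library. The study asked whether ASIV improves neurotransmission in the BTBR model. Nothing in the labels says that the libraries of a group came from separate animals, so the p-values measure the spread between these libraries, which may be technical.

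Layer 5 of the cortex sends axons to the brainstem, spinal cord and striatum, and layer 6 sends its main output to the thalamus. The deepest sheet, layer 6b, holds neurons that survive from the embryonic subplate. The identity of these cells is set by transcription factors that restrain one another: Fezf2 and its downstream factor Bcl11b (Ctip2) direct the layer 5 subcerebral fate, and Tbr1 directs the corticothalamic fate of layer 6 and represses Fezf2 there. The other markers are transcriptional regulators (Etv1, Foxp2, Tle4), a cytosolic hormone-binding protein (Crym), a member of the synaptotagmin family (Syt6) and secreted proteins (Nxph4, Ccn2). Several are also made by other cells, such as Bcl11b and Foxp2 by spiny neurons of the striatum and Ccn2 by vascular and meningeal cells. In bulk tissue, fewer cells of a type and less RNA per cell cannot be told apart.

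The libraries held 16166327 to 18660037 fragments, and replicates correlated at a Pearson r of 0.971 to 0.992 across genes on the log2 scale. On the leading principal component, with 54% of the variance, BTBR ASIV lay at -4.1 to 2.3 and BTBR vehicle at 36.9 to 47.8, while C57 ASIV at -23.7 to -13.8 and C57 vehicle at -22.4 to -18.2 overlapped. Messenger RNAs of the mitochondrial genome made up 3.00 to 3.22% of assigned fragments in BTBR ASIV and 0.328 to 0.641% in BTBR vehicle. They made up 3.02 to 4.54% in C57 ASIV and 4.39 to 4.67% in C57 vehicle, and each FPKM shares its denominator with them. The vesicular glutamate transporter Slc17a7, which defines excitatory cortical neurons, ranged from 240.9 FPKM in a BTBR ASIV library to 393.6 FPKM in a C57 ASIV library, so such neurons were present in every library.

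Of the 10 markers, 4 were called in at least 1 comparison: Syt6 and Tbr1 between ASIV and vehicle in BTBR, and Tle4 and Etv1 between the strains under vehicle. For that reason the 250 bases before a RefSeq start site (GRCm38.p6) are printed for each, from the entry nearest to the start of the gene in GENCODE M21. The RefSeq start lay 14 bases inside the GENCODE gene for Syt6, 702 bases inside for Etv1 and 1523 bases inside for Tbr1, and 132 bases before it for Tle4. The Tbr1 and Etv1 windows thus lie within the gene as GENCODE draws it and hold no sequence from before its outermost start. RefSeq entries were matched for 6 of the 10 markers, the others being Bcl11b and Fezf2; Crym, Foxp2, Nxph4 and Ccn2 had no match. Capitals mark the GC box GGGCGG and the CCAAT box CCAAT on either strand. The windows lie at chr3:103574995-103575244 on the plus strand for Syt6, chr2:61804203-61804452 on the plus strand for Tbr1, chr19:14598184-14598433 on the minus strand for Tle4 and chr12:38779832-38780081 on the plus strand for Etv1.
Syt6: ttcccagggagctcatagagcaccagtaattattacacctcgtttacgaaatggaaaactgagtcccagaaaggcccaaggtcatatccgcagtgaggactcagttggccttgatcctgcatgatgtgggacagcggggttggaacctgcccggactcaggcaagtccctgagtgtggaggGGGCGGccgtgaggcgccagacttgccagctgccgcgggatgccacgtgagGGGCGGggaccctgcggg
Tbr1: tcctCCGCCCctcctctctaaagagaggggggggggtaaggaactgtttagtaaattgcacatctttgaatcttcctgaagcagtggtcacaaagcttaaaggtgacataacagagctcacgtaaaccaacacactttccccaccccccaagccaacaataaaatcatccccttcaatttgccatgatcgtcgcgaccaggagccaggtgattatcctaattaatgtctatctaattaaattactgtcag
Tle4: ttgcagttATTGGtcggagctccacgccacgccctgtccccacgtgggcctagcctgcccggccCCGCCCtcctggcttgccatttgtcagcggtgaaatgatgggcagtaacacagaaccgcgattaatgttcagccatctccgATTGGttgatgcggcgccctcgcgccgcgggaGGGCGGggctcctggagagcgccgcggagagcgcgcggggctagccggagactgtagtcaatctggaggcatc
Etv1: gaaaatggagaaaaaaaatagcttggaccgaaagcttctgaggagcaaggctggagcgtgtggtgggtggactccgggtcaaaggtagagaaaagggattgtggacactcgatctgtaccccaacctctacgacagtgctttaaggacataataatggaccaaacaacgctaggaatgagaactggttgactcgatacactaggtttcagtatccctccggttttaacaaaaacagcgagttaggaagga

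The Syt6 window held 2 GC boxes, the Tbr1 window 1 GC box, the Tle4 window 2 GC boxes and 2 CCAAT boxes, and the Etv1 window neither. For comparison, 32.7% of all 32851 RefSeq windows of this length held a GC box and 33.8% a CCAAT box. The TATA box TATAAA, the T-box motif GGTGTG and the ETS core CCGGAA, searched on both strands, were found in none of the 4 windows, against 12.4% of all windows for the TATA box, 16.3% for the T-box motif and 12.0301% for the ETS core. GC content was 60.4% for Syt6, 45.2% for Tbr1, 65.2% for Tle4 and 46.4% for Etv1, with a median of 52.4% over all windows. A match of letters describes the sequence and does not show a site in use.

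Ranked by mean FPKM over the 12 libraries, Tbr1 stood first at 34.9, followed by Crym at 24.3, Bcl11b at 15.7, Tle4 at 14.4, Fezf2 at 8.58, Ccn2 at 7.36, Syt6 at 6.75, Etv1 at 4.43, Nxph4 at 3.66 and Foxp2 at 0.849. FPKM is scaled by the exon length of the gene, which was 16346 bases for Foxp2, 13296 for Etv1 and 1675 for Nxph4. That is 1 annotated length per gene, not the length of the transcripts present. Levels of different genes can therefore be set beside each other only roughly, and the order of the markers is one of FPKM. Tbr1 exceeded Crym in 11 libraries and Crym exceeded Bcl11b in all 12. Neighbours that changed places from library to library were Ccn2 and Syt6, with Ccn2 above in 4 libraries, Etv1 and Nxph4, with Etv1 above in 7, Fezf2 and Ccn2, with Fezf2 above in 8, and Bcl11b and Tle4, with Bcl11b above in 9. Nxph4 rested on the fewest fragments, 71 to 149 per library, and Tbr1 on the most, 2677 to 4460.

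**Figure D1:**
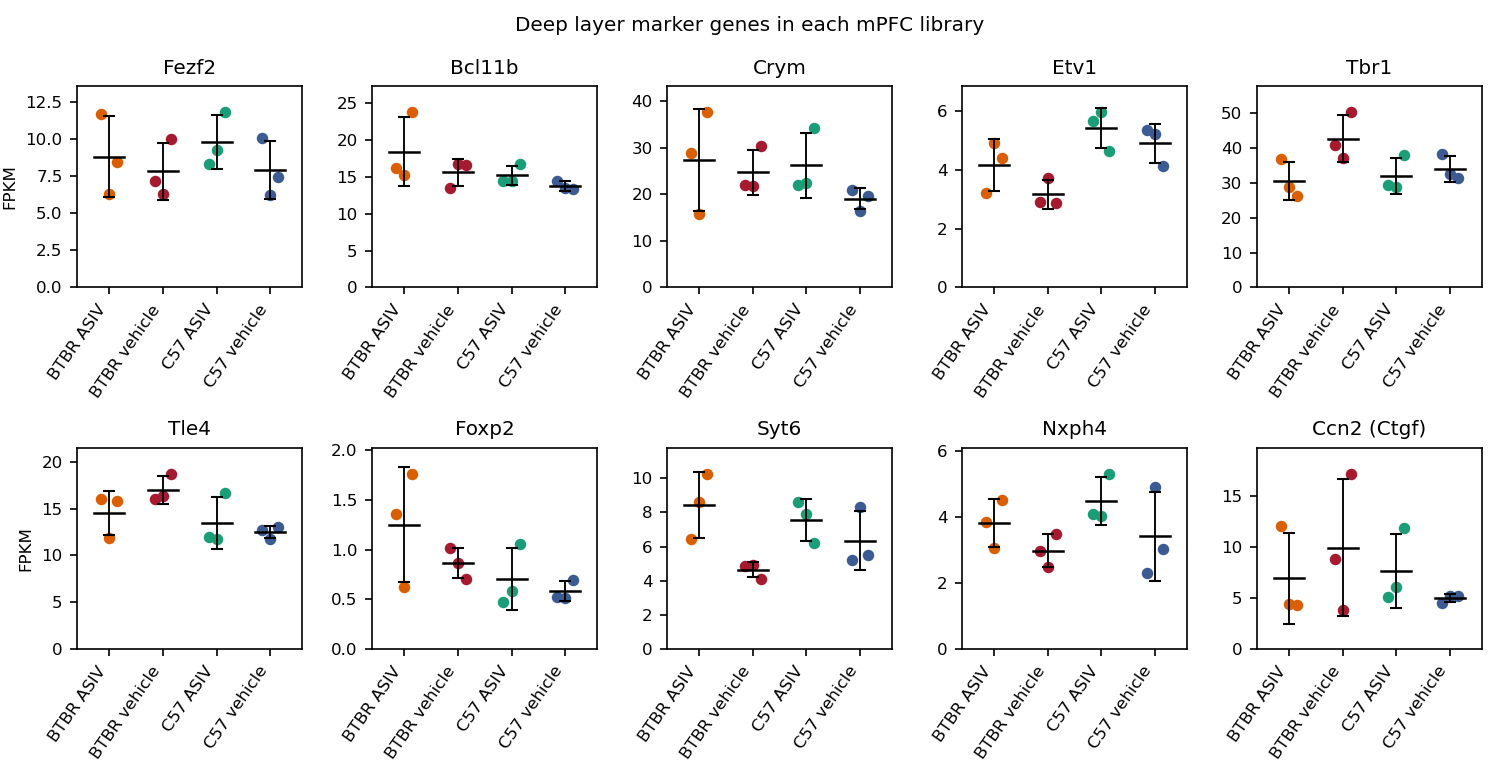
FPKM of the 10 deep layer markers in each of 12 mPFC libraries, 1 panel per gene on its own linear scale, with BTBR ASIV, BTBR vehicle, C57 ASIV and C57 vehicle from left to right. Points are libraries, lines are means and bars are SD (n = 3); the 3 Syt6 points of BTBR ASIV, 6.42 to 10.3 FPKM, lie above those of BTBR vehicle, 4.12 to 4.94 FPKM, while the Ccn2 points of BTBR vehicle run from 3.81 to 17.1 FPKM.

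Among the layer 5 genes, Fezf2 (chr14:12342094-12348189, minus strand, GENCODE M21 on GRCm38) encodes the zinc finger factor that specifies subcerebral projection neurons. It had 11.7, 6.31 and 8.43 FPKM in BTBR ASIV, 7.18, 6.26 and 9.99 FPKM in BTBR vehicle, 8.31, 9.27 and 11.8 FPKM in C57 ASIV, and 10.04, 6.23 and 7.41 FPKM in C57 vehicle. All 4 groups overlapped. Bcl11b (chr12:107910403-108003602, minus strand), which acts downstream of Fezf2 and is also a marker of striatal spiny neurons, had 16.2, 15.2 and 23.7 FPKM in BTBR ASIV, 13.5, 16.7 and 16.6 FPKM in BTBR vehicle, 14.4, 14.4 and 16.7 FPKM in C57 ASIV, and 14.5, 13.4 and 13.3 FPKM in C57 vehicle. Of these 12 values the third BTBR ASIV library stood highest, and the other 11 lay between 13.3 and 16.7.

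Crym (chr7:120186380-120202111, minus strand) encodes mu-crystallin, which binds thyroid hormone in the cytosol. It had 28.9, 15.8 and 37.6 FPKM in BTBR ASIV, 21.9, 21.7 and 30.3 FPKM in BTBR vehicle, 22.0, 22.4 and 34.3 FPKM in C57 ASIV, and 20.8, 16.5 and 19.6 FPKM in C57 vehicle. Both the highest and the lowest of the 12 were BTBR ASIV libraries, and C57 vehicle lay below BTBR vehicle and C57 ASIV without overlap. Etv1 (chr12:38779380-38870484, plus strand), an ETS factor known as Er81 that marks layer 5 neurons, had 3.20, 4.94 and 4.40 FPKM in BTBR ASIV, 2.90, 3.74 and 2.88 FPKM in BTBR vehicle, 5.68, 5.97 and 4.65 FPKM in C57 ASIV, and 5.35, 5.25 and 4.14 FPKM in C57 vehicle. The 3 BTBR vehicle libraries lay below all 6 C57 libraries, and BTBR ASIV overlapped with each of the other groups.

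Among the layer 6 genes, Tbr1 (chr2:61802930-61814114, plus strand) encodes the T-box factor of corticothalamic identity, and its human counterpart is an autism risk gene. It had 36.8, 28.8 and 26.4 FPKM in BTBR ASIV, 40.8, 37.2 and 50.3 FPKM in BTBR vehicle, 29.4, 28.8 and 38.1 FPKM in C57 ASIV, and 38.2, 32.5 and 31.4 FPKM in C57 vehicle. All 3 BTBR vehicle libraries lay above all 3 BTBR ASIV libraries, by a narrow margin between the nearest of them. Tle4 (chr19:14448150-14598051, minus strand), a Groucho-family corepressor found in corticothalamic neurons, had 16.0, 11.9 and 15.8 FPKM in BTBR ASIV, 16.0, 16.3 and 18.7 FPKM in BTBR vehicle, 12.01, 11.7 and 16.7 FPKM in C57 ASIV, and 12.7, 11.7 and 13.0 FPKM in C57 vehicle. All BTBR vehicle libraries were above all C57 vehicle libraries, while the third C57 ASIV library reached into the BTBR vehicle range.

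Foxp2 (chr6:14901349-15441977, plus strand), a forkhead factor of layer 6 and of striatal spiny neurons, had 1.36, 0.622 and 1.76 FPKM in BTBR ASIV, 1.01, 0.867 and 0.708 FPKM in BTBR vehicle, 0.471, 0.5853 and 1.06 FPKM in C57 ASIV, and 0.528, 0.517 and 0.696 FPKM in C57 vehicle. With an exon length of 16346 bases, it had 139 to 533 fragments per library in spite of the low FPKM. The BTBR vehicle libraries lay above the C57 vehicle ones, the nearest of them at 0.708 and 0.696 FPKM. Syt6 (chr3:103575231-103645569, plus strand), a synaptotagmin whose RNA marks layer 6 corticothalamic neurons, had 6.42, 8.63 and 10.3 FPKM in BTBR ASIV, 4.88, 4.94 and 4.12 FPKM in BTBR vehicle, 8.61, 7.90 and 6.19 FPKM in C57 ASIV, and 5.21, 8.31 and 5.52 FPKM in C57 vehicle. The 3 BTBR vehicle libraries were the 3 lowest of the 12. Its exons overlap those of Atg4a-ps on the other strand, a gene not in the table, and the strand used in counting is not stated in the labels.

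The layer 6b genes code for secreted proteins. Nxph4 (chr10:127525473-127534559, minus strand), a neurexophilin that binds alpha-neurexins, had 3.86, 3.07 and 4.52 FPKM in BTBR ASIV, 2.97, 2.48 and 3.47 FPKM in BTBR vehicle, 4.08, 4.01 and 5.30 FPKM in C57 ASIV, and 2.30, 4.90 and 3.01 FPKM in C57 vehicle. Every group overlapped with C57 vehicle, while C57 ASIV lay above BTBR vehicle. Ccn2 (chr10:24595442-24598683, plus strand), the matricellular connective tissue growth factor, had 12.03, 4.38 and 4.33 FPKM in BTBR ASIV, 8.81, 3.81 and 17.1 FPKM in BTBR vehicle, 5.06, 6.10 and 11.8 FPKM in C57 ASIV, and 4.496, 5.14 and 5.22 FPKM in C57 vehicle. In BTBR ASIV, BTBR vehicle and C57 ASIV a single library stood well above the others, and in C57 vehicle the 3 libraries lay within 1 FPKM of each other. Its exons overlap those of Gm15270 on the other strand, also not in the table.

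The markers differed in how far replicates spread. The within-group SD of Ccn2 on the log2 scale was 0.67, larger than that of 99.4% of the tested genes. Crym at 0.39 and Fezf2 at 0.32 exceeded 95.8 and 92.4% of the tested genes, and the other 7 markers exceeded 68.5 to 88.1%. The widths of the intervals followed this spread: the 95% interval of the Ccn2 difference between ASIV and vehicle in BTBR ran from -1.49 to 0.69 on the log2 scale, against 0.34 to 1.11 for Syt6.

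The comparison of the strains under vehicle asked how the cortex of the model strain differs from that of C57 mice. Tle4 was higher in BTBR vehicle, at 17.0 ± 1.48 FPKM against 12.5 ± 0.666 FPKM in C57 vehicle (SD, n = 3 each), a log2 difference of FPKM + 1 of 0.41 ± 0.14 (SE, limma, adjusted p = 0.03005). Etv1 was lower, at 3.17 ± 0.492 FPKM in BTBR vehicle against 4.91 ± 0.671 FPKM in C57 vehicle, a log2 difference of -0.50 ± 0.14 (adjusted p = 0.0141). Thus 2 of 10 markers were called, 20% of them, beside 43.1% of all tested genes (22.3% higher and 20.8% lower), a share of the markers no larger than the background, with 1 call in each direction. Their median log2 difference was 0.20, against 0.01 over all tested genes.

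The other 8 markers did not pass. Syt6 stood at -0.36 ± 0.18 (adjusted p = 0.125) and Tbr1 at 0.31 ± 0.15 (adjusted p = 0.116). Groups without overlap were found for 5 of 10 markers, beside 53.3% of all tested genes: Tle4, Crym (0.35 ± 0.27) and Foxp2 (0.24 ± 0.19) were higher, a direction that 27.4% of all tested genes showed, and Etv1 and Syt6 were lower, which 25.9% showed. At an unadjusted p under 0.05 there were 2 markers, Tle4 and Etv1, and 50.7% of all tested genes. Ccn2 stood at 0.67 ± 0.49 (adjusted p = 0.295), with 0.21 without BTBR vehicle replicate 3 and 1.17 without BTBR vehicle replicate 2, and Fezf2 at -0.01 ± 0.22. Foxp2, the lowest of the markers in FPKM, stood at 0.58 with voom on recovered fragments, where no constant of 1 FPKM is added. The call of Tle4 was lost without BTBR vehicle replicate 3 (adjusted p = 0.0998) or any of C57 vehicle replicates 1, 2 and 3 (0.0646, 0.0973 and 0.0532), and when FPKM were rescaled without the mitochondrial genes (0.36 ± 0.14, adjusted p = 0.0589). That of Etv1 was lost without C57 vehicle replicate 1 (adjusted p = 0.0566) or 2 (0.0533).

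**Figure D2:**
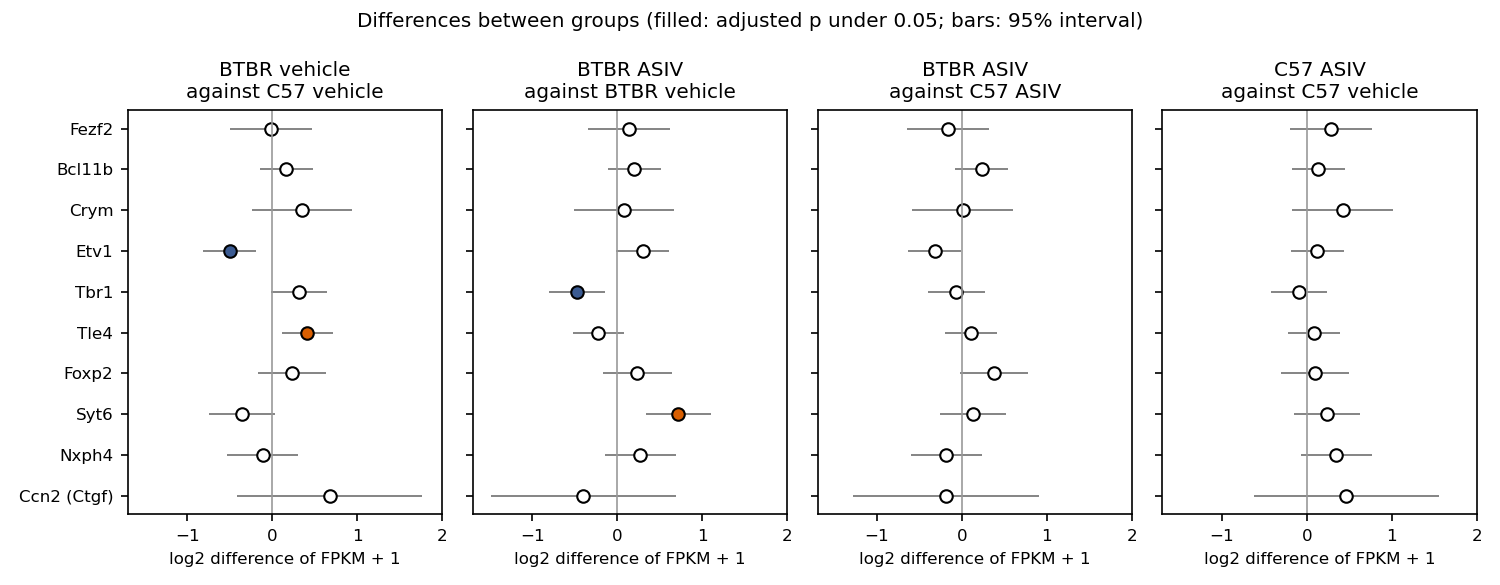
Log2 differences of FPKM + 1 of the 10 deep layer markers in 4 comparisons of group pairs, with 95% intervals from limma; filled points have an adjusted p under 0.05, orange for higher and blue for lower. Tle4 (0.41) and Etv1 (-0.50) are filled in BTBR vehicle against C57 vehicle, Syt6 (0.72) and Tbr1 (-0.47) in BTBR ASIV against BTBR vehicle, and none in the other 2 comparisons.

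Within BTBR, ASIV was compared with vehicle to see which markers move under the drug in the model strain. Syt6 was higher, at 8.44 ± 1.92 FPKM in BTBR ASIV against 4.65 ± 0.460 FPKM in BTBR vehicle (SD, n = 3 each), a log2 difference of 0.72 ± 0.18 (SE, limma, adjusted p = 0.00987). Tbr1 was lower, at 30.7 ± 5.46 FPKM in BTBR ASIV against 42.8 ± 6.76 FPKM in BTBR vehicle, a log2 difference of -0.47 ± 0.15 (adjusted p = 0.0358). These 2 layer 6 markers thus went in opposite directions, and the 2 calls (20%) stand beside 29.1% of all tested genes, 13.7% higher and 15.4% lower. The median of the 10 was 0.17, against -0.01 over all tested genes.

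Of the 8 markers that were not called, Etv1 was nearest, at 0.30 ± 0.14 (adjusted p = 0.133), and it passed at 0.0366 without BTBR ASIV replicate 1. Tle4 stood at -0.22 ± 0.14 (adjusted p = 0.261), with its nearest libraries at 15.99 FPKM in BTBR ASIV and 16.01 FPKM in BTBR vehicle. By that narrow margin its groups did not overlap, and those of Syt6 and Tbr1 did not either. That is 3 of 10 markers, 1 higher and 2 lower, where 39.1% of all tested genes showed no overlap, 19% higher and 20.1% lower. At an unadjusted p under 0.05 there were 2 markers, Tbr1 and Syt6, and 41% of all tested genes. Ccn2 (-0.40 ± 0.49), Nxph4 (0.27 ± 0.19), Foxp2 (0.24 ± 0.19), Bcl11b (0.20 ± 0.14), Fezf2 (0.14 ± 0.22) and Crym (0.08 ± 0.27) overlapped between the groups.

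The rise of Syt6 held in every alternative tried, with a log2 difference of 0.59 to 0.89 and an adjusted p of 0.00539 to 0.0427 when single libraries were left out. The fall of Tbr1 kept its direction but lost its call without BTBR ASIV replicate 2 (adjusted p = 0.0969) or 3 (0.129) and without BTBR vehicle replicate 1 (0.0554) or 3 (0.127). It was also lost in a fit on the BTBR libraries alone (adjusted p = 0.0838), with quantile normalization (0.0575) and after rescaling without the mitochondrial genes (0.0552). Set beside the C57 groups, Syt6 averaged 8.44 FPKM in BTBR ASIV, against 7.57 ± 1.24 FPKM in C57 ASIV and 6.35 ± 1.70 FPKM in C57 vehicle, and Tbr1 averaged 30.7 FPKM in BTBR ASIV, against 32.1 ± 5.21 FPKM in C57 ASIV and 34.1 ± 3.64 FPKM in C57 vehicle. The strain and treatment comparisons share the BTBR vehicle libraries, so their values are not independent.

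Under ASIV, BTBR was compared with C57 to see which strain differences were present in treated mice. None of the 10 markers was called with limma, where 2.53% of all tested genes were (1.31% higher and 1.22% lower), and no marker had groups without overlap, against 26.2% of all tested genes. Foxp2 stood at 0.38 ± 0.19 (limma, adjusted p = 0.287) and Etv1 at -0.32 ± 0.14 (adjusted p = 0.248). The Foxp2 value was 0.8 with voom, 0.6 without BTBR ASIV replicate 2 and 0.21 without BTBR ASIV replicate 3, and was called in none of these. Etv1 was the 1 marker with an unadjusted p under 0.05, which 19.2% of all tested genes had. For Tle4 the difference under ASIV was 0.11 ± 0.14, with a 95% interval of -0.19 to 0.41. The interval of Syt6 ran from -0.26 to 0.52 and that of Tbr1 from -0.40 to 0.27, so that differences in either direction lie within them. Voom on recovered fragments also called 0 markers.

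In C57 mice, ASIV against vehicle gave 0 called markers and 0 called genes in all (0%) with limma, and the same with voom on recovered fragments. At an unadjusted p under 0.05 there were 0 markers and 417 genes, 3.07% of those tested. Crym was the 1 marker whose groups did not overlap, at 26.2 ± 7.01 FPKM in C57 ASIV against 19.0 ± 2.24 FPKM in C57 vehicle (0.42 ± 0.27), where 13.1% of all tested genes showed no overlap, 6.14% higher and 6.98% lower. Nxph4 stood at 0.34 ± 0.19, with 4.46 ± 0.726 FPKM in C57 ASIV against 3.41 ± 1.34 FPKM in C57 vehicle. The median log2 difference of the 10 markers was 0.18, with 9 positive, against 0.002 over all tested genes. For ASIV in BTBR it was 0.17, with 7 positive, so a median above 0 was not particular to BTBR.

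Whether ASIV acted differently in the strains was tested by the interaction of strain and ASIV, and again 0 of 10 markers were called, against 14.3% of all tested genes (6.91% higher and 7.36% lower). At an unadjusted p under 0.05 the count was also 0, against 29.7%. Syt6 came nearest, at 0.49 ± 0.25 (adjusted p = 0.220), followed by Tbr1 at -0.38 ± 0.22 (adjusted p = 0.266). The ASIV calls of Syt6 and Tbr1 in BTBR were therefore not shown to differ from the responses of these genes in C57, which were 0.24 ± 0.18 and -0.09 ± 0.15.

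Other markers of layers 5, 6 and 6b were read from a list of 25 genes, of which 22 were tested. Under vehicle, 6 were higher and 6 lower in BTBR than in C57 (54.5%, beside 43.1% of all tested genes), and the median log2 difference was 0.01, as over all tested genes. Between ASIV and vehicle in BTBR, 5 were higher and 3 lower (36.4%, beside 29.1% of all tested genes). The comparisons of the strains under ASIV and of ASIV with vehicle in C57 gave 0 calls, and the interaction gave 3 higher and 1 lower (18.2%, beside 14.3%).

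Pcp4, a calmodulin-binding peptide of layer 5 and 6 neurons, had 16.1, 18.8 and 18.6 FPKM in BTBR ASIV and 4.42, 5.14 and 3.44 FPKM in BTBR vehicle. In the C57 groups it had 16.0, 20.4 and 32.9 FPKM under ASIV and 22.5, 22.1 and 18.8 FPKM under vehicle. BTBR vehicle lay below all other libraries, with a log2 difference of -2.06 ± 0.21 to C57 vehicle (adjusted p = 2.14e-05) and of 1.83 ± 0.21 for ASIV against vehicle in BTBR (adjusted p = 0.000150). S100a10 (p11), an annexin partner of layer 5a neurons, had 10.3, 14.5 and 11.2 FPKM in BTBR ASIV, 6.79, 5.75 and 4.80 FPKM in BTBR vehicle, 11.99, 14.7 and 16.1 FPKM in C57 ASIV, and 14.9, 16.4 and 12.9 FPKM in C57 vehicle. It stood at -1.22 ± 0.15 between the strains under vehicle and 0.94 ± 0.15 for ASIV in BTBR, and both genes were called in the interaction as well (1.77 ± 0.29 and 0.98 ± 0.21).

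Ldb2, a LIM-domain-binding cofactor of layer 5 neurons, stood at -1.31 ± 0.18 between the strains under vehicle and 0.79 ± 0.18 for ASIV in BTBR. Parm1 stood at -0.83 ± 0.18 and 0.52 ± 0.18 in the same comparisons; the second was called at an adjusted p of 0.0461, and 9 of the 12 fits without a library lost it. Deptor, an inhibitor of mTOR, was lower in BTBR vehicle than in C57 vehicle (-0.53 ± 0.13), and Bcl6, a transcriptional repressor, was higher in BTBR ASIV than in BTBR vehicle (0.59 ± 0.10, adjusted p = 0.00129). On the higher side under vehicle was Hs3st4, a heparan sulfate sulfotransferase of layer 6, with 46.4, 37.1 and 71.5 FPKM in BTBR vehicle against 20.4, 19.0 and 20.6 FPKM in C57 vehicle (1.27 ± 0.27). In BTBR ASIV it had 36.1, 19.8 and 20.8 FPKM, lower than in BTBR vehicle by a log2 difference of -0.99 ± 0.27 (adjusted p = 0.0176). That call was lost without BTBR ASIV replicate 2 (0.0648) or 3 (0.0612), without BTBR vehicle replicate 3 (0.0619) and in a fit on the BTBR libraries alone (0.0518). Without BTBR vehicle replicate 3 the list had 3 rather than 6 higher genes under vehicle, and without it or BTBR ASIV replicate 2 it had 1 rather than 3 lower genes for ASIV in BTBR.

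**Figure D3:**
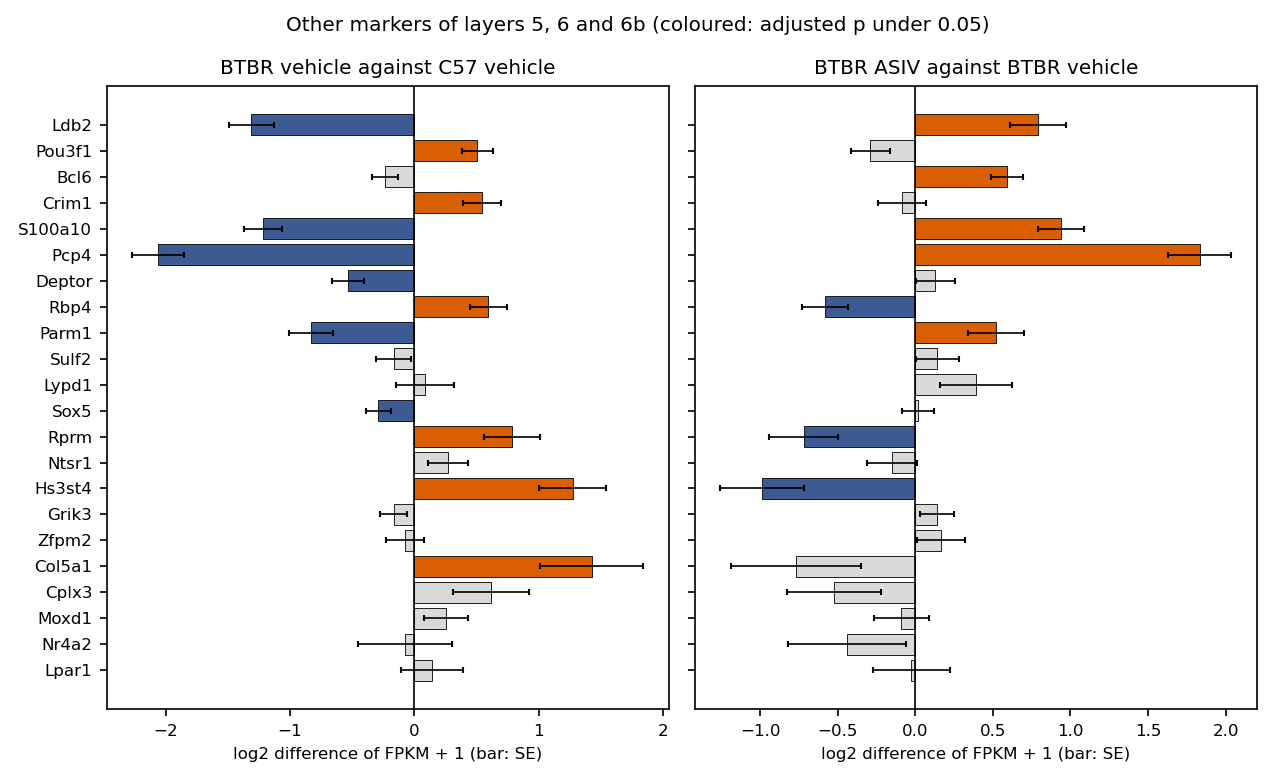
Log2 differences of FPKM + 1 of the 22 tested genes of a further list of layer 5, 6 and 6b markers, for BTBR vehicle against C57 vehicle on the left and BTBR ASIV against BTBR vehicle on the right; thin bars are SE, orange bars were called higher and blue bars lower. Pcp4 (-2.06 on the left, 1.83 on the right) has the longest bar in both panels, and grey bars were not called.

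Relatives of the markers by gene family were read from a list of 18 genes, of which 16 were in the table and tested. Under vehicle, 1 was higher (Tle1) and 7 were lower in BTBR than in C57, and between ASIV and vehicle in BTBR 8 were higher and 0 lower, each 50% of the list. Of all tested genes 43.1% were called under vehicle, 20.8% lower, and 29.1% for ASIV in BTBR, 13.7% higher. The lower ones under vehicle were Aes, Bcl11a, Ccn3, Etv5, Foxp1, Foxp4 and Nxph1, and the higher ones under ASIV in BTBR were Aes, Bcl11a, Ccn3, Foxp1, Foxp4, Nxph1, Syt10 and Tle3. The 4 relatives with the highest mean FPKM are given with values. Aes (Tle5), a short member of the Groucho family to which Tle4 belongs, averaged 152.9 ± 14.96 FPKM in BTBR ASIV and 100.9 ± 16.8 FPKM in BTBR vehicle, with 140.4 ± 16.0 and 160.7 ± 9.36 FPKM in C57 ASIV and C57 vehicle. It stood at -0.68 ± 0.13 between the strains under vehicle and 0.60 ± 0.13 for ASIV in BTBR, opposite in sign to Tle4 in both. Ccn3 (Nov), a matricellular relative of Ccn2, stood at -0.83 ± 0.21 and 0.71 ± 0.21, and Etv5 at -0.41 ± 0.13 and 0.31 ± 0.13, the second not called (adjusted p = 0.0898). Nxph3, a neurexophilin like Nxph4, was not called in either (0.46 ± 0.43 and -0.17 ± 0.43).

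These counts depended on single libraries. Without BTBR ASIV replicate 2, BTBR vehicle replicate 1 or BTBR vehicle replicate 3, 5 relatives rather than 8 were higher for ASIV in BTBR, as in a fit on the BTBR libraries alone, and Tle1 lost its call without BTBR vehicle replicate 3 or C57 vehicle replicate 2. Ccn3 lost its ASIV call in BTBR without BTBR ASIV replicate 2 (adjusted p = 0.103) or 3 (0.0756) or BTBR vehicle replicate 1 (0.0913). Etv5 lost its strain call without any 1 of 5 of the 6 vehicle libraries, with an adjusted p of up to 0.0789.

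Markers of the upper cortical layers were read in the same way. Of 10, 0 were higher and 6 lower in BTBR vehicle than in C57 vehicle, 60% of the list beside 43.1% of all tested genes called and 20.8% called lower. Their median log2 difference was -0.57, against 0.01 over all tested genes. Lamp5, a lysosome-associated membrane protein, averaged 32.6 ± 5.98 FPKM in BTBR vehicle against 55.5 ± 1.56 FPKM in C57 vehicle (-0.76 ± 0.14), and Lhx2, a LIM-homeobox factor, was not called (0.15 ± 0.17). For ASIV in BTBR 1 was higher (Pou3f2) and 0 lower, 10% beside 29.1% of all tested genes, a count that was 0 or 2 in several alternatives. The summed FPKM of the 10 upper layer markers was 114.2, 140.6 and 117.6 in BTBR ASIV, 103.4, 121.1 and 111.5 in BTBR vehicle, 135.2, 153.7 and 132.8 in C57 ASIV, and 156.4, 155.7 and 162.6 in C57 vehicle. That of the 10 deep layer markers was 136.4, 99.6 and 137.2 in BTBR ASIV, 120.0, 114.0 and 154.3 in BTBR vehicle, 110.0, 111.2 and 146.6 in C57 ASIV, and 114.2, 104.5 and 103.4 in C57 vehicle. The upper layer sums of BTBR vehicle and C57 vehicle did not overlap. Those of the deep layer markers did so only narrowly. The lowest BTBR vehicle sum was 114.05 FPKM and the highest C57 vehicle sum 114.18 FPKM, and the other BTBR vehicle sums lay above all of C57 vehicle. Such sums weigh most on genes of high FPKM, such as Tbr1 and Crym or Lamp5. Whether the upper and deep layer markers differ in their strain difference was not tested.

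The spread of Ccn2 within groups was set beside that of the other markers, a reading chosen after its values were seen. Ccn2 was highest in replicate 1 of BTBR ASIV and in replicate 3 of BTBR vehicle, C57 ASIV and C57 vehicle. Tle4 was highest in the same library in 4 of 4 groups, Fezf2 and Tbr1 in 3, Crym, Foxp2 and Nxph4 in 2, Bcl11b in 1 and Etv1 and Syt6 in 0. Etv1 was instead lowest in that library in 4 of 4 groups and Syt6 in 3. Over all other tested genes, 1.93% were highest in that library in 4 of 4 groups and 1.9% were lowest there in 4 of 4. The differences between the C57 vehicle libraries of Ccn2 were small, at 240, 242 and 243 fragments, so the choice of a highest library there is within counting error. Near ties also decided other places. In BTBR vehicle Etv1 was lowest at 2.884 FPKM, against 2.897 FPKM in replicate 1. In BTBR ASIV Tle4 was highest at 15.99 FPKM, against 15.84 FPKM in replicate 3.

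Of the further deep layer markers, Hs3st4, Cplx3 and Lypd1 were highest there in 4 of 4 groups, and 8 of 22 in at least 3 groups, where 13% of all genes were highest there in 3 groups and 1.93% in 4. Genes of other lists shared that library as well. The inhibitory neuron markers Sst and Lhx6 and the relative Aes were highest there in 4 of 4 groups. In at least 3 groups, 3 of 9 inhibitory neuron markers and 1 of 10 endothelial, mural and meningeal markers were highest there. The same held for 4 of 16 relatives, 2 of 7 excitatory neuron markers (Tbr1 and Neurod2) and 1 of 8 general neuron markers. Cplx3, a complexin of layer 6b neurons, had 5.70, 3.24 and 3.08 FPKM in BTBR ASIV, 7.26, 3.67 and 7.92 FPKM in BTBR vehicle, 2.33, 2.97 and 6.05 FPKM in C57 ASIV, and 3.09, 3.69 and 3.96 FPKM in C57 vehicle. It ranked the 3 libraries as Ccn2 did in all 4 groups, which 0.0736% of all other tested genes did. That full order rests on near ties of Ccn2. In BTBR ASIV replicates 2 and 3 had 4.38 and 4.33 FPKM, from 227 and 229 fragments. In C57 vehicle the 3 libraries had 240, 242 and 243 fragments. Among upper layer markers 0 of 10 were highest in the library of highest Ccn2 in at least 3 groups. Among oligodendrocyte markers 7 of 8 were, and 0 of 8 were in all 4 groups. In BTBR vehicle the sum of these 8 was highest in replicate 1, not in replicate 3, where Ccn2 was highest. The summed FPKM of these 8 was 983.8, 509.2 and 976.1 in BTBR ASIV, 1371, 580.2 and 1011 in BTBR vehicle, 630.2, 639.9 and 1051 in C57 ASIV, and 739.0, 698.1 and 822.0 in C57 vehicle. Of them Mog and Cldn11 were higher in BTBR vehicle than in C57 vehicle and Mog lower in BTBR ASIV than in BTBR vehicle, and the part of these cells in the results of the deep layer markers was not tested.

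**Figure D4:**
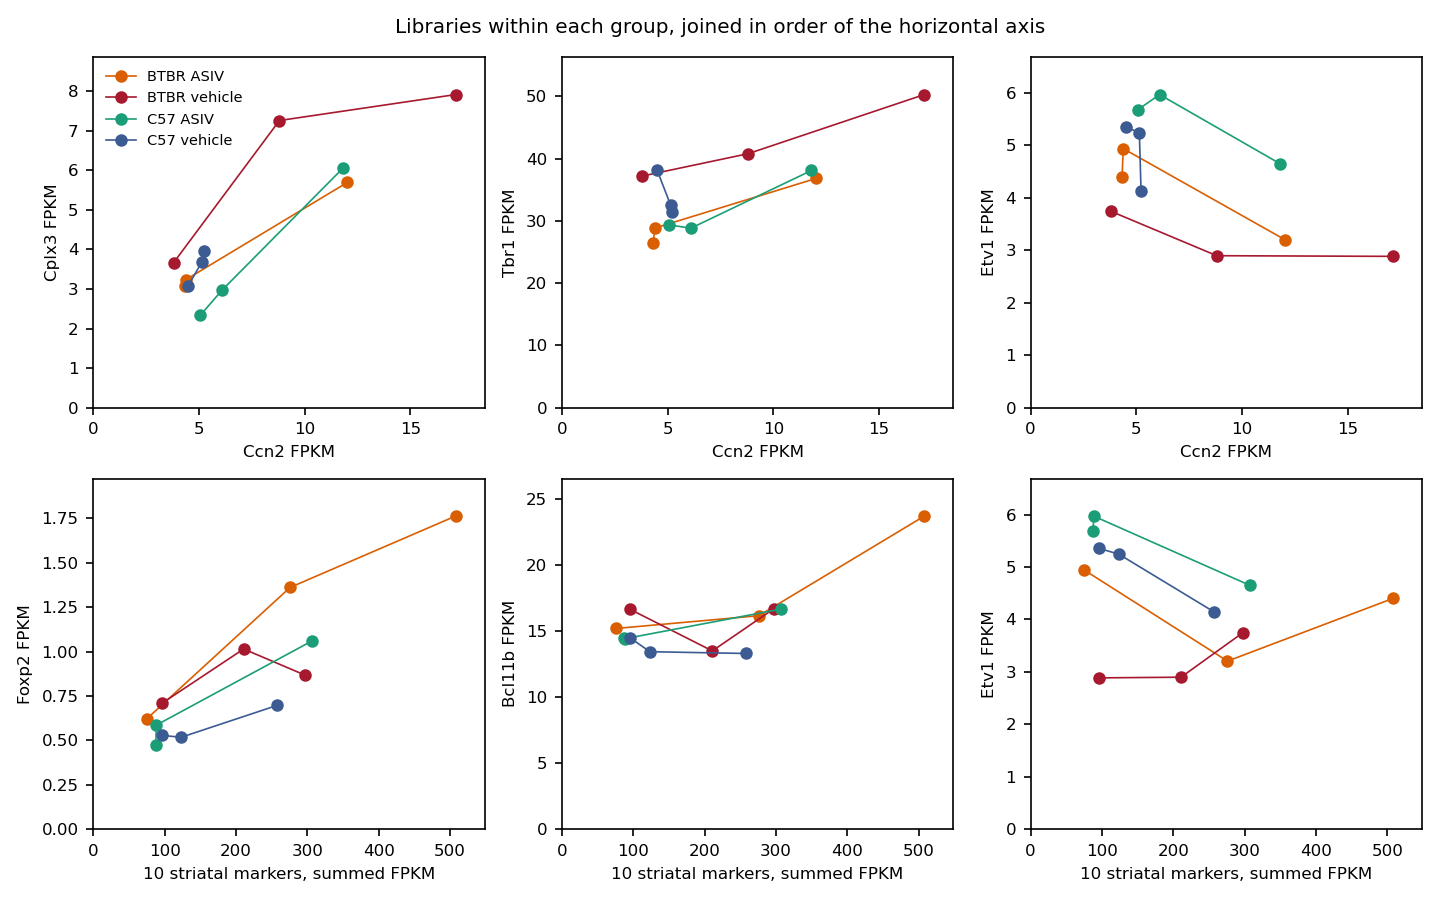
FPKM of Cplx3, Tbr1 and Etv1 against that of Ccn2 (top row), and of Foxp2, Bcl11b and Etv1 against the summed FPKM of 10 striatal markers (bottom row), on linear axes; each point is 1 library and a line joins the 3 libraries of a group. Within each group Cplx3 is highest and Etv1 lowest in the library with most Ccn2, and the BTBR ASIV library with the highest striatal sum, 507.9 FPKM, also has the highest Foxp2 and Bcl11b.

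Markers of striatal spiny neurons, a neighbouring tissue, varied strongly between replicates. Their sum over 10 genes was 275.9, 75.3 and 507.9 FPKM in BTBR ASIV, 210.8, 297.1 and 96.0 FPKM in BTBR vehicle, 87.7, 88.3 and 307.0 FPKM in C57 ASIV, and 95.9, 123.3 and 257.3 FPKM in C57 vehicle. None of the 10 was called in any of the 5 tests with limma, although their median log2 difference was 0.34 for ASIV against vehicle in BTBR and 0.72 for BTBR ASIV against C57 ASIV. Foxp2 and Bcl11b, which striatal neurons also express, were highest in the library with the highest striatal sum in 3 of 4 groups. Of all genes 13.4% were highest there in 3 groups and a further 2.33% in 4. Crym was highest there in 2 groups, and the other markers in 1 or 2. Genes that are not striatal markers also shared that library, such as Eno2 in 4 groups. In 3 groups 4 of the 22 further deep layer markers, 1 upper layer marker, 2 of 8 oligodendrocyte markers, 2 of 8 microglia markers and 1 of 8 astrocyte markers did. The match of Bcl11b in BTBR vehicle was a near tie, at 16.69 FPKM in replicate 2 against 16.63 FPKM in replicate 3. In C57 vehicle Bcl11b was lowest, at 13.3 FPKM, in replicate 3, which had the highest striatal sum. Ppp1r1b (DARPP-32) ran from 24.8 FPKM to 164.0 FPKM among the BTBR ASIV libraries and Penk, the enkephalin precursor, from 26.9 to 120.2 FPKM. The part of striatal RNA in the values of Foxp2, Bcl11b, Crym and the other markers was not tested.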

How the data were processed

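RNA-seq of mouse mPFC was analysed in 12 libraries, 4 groups of 3. The authors deposited 1 table of FPKM per gene and library; per the submitters' processing notes HISAT2 2.0.5 and mm10 were used, and no counter, annotation, strand or filter is named in the labels. The table has 0 other sample columns. Of its identifiers 17265 matched GENCODE M21 and 18 did not. FPKM times exon length gave whole fragments within 0.02 for 97.6 to 98.0% of values under 50, and so the depth of each library.

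Values were tested as log2(FPKM + 1) for genes at FPKM of at least 1 in 3 or more libraries, with limma 3.58.1 in R 4.3.3 (lmFit, eBayes with trend and robust, 4 group means, 8 residual degrees of freedom). The Benjamini-Hochberg adjustment covered all 13586 genes tested, and genes under 0.05 were called. A pooled spread is assumed for all groups, and differences of FPKM + 1 understate those of low genes. Levels are mean and SD over 3 libraries, and intervals are 95% intervals of the model. The pipeline was tested on simulated data, drawn with independent noise for each gene and library. Shifts shared by many genes of a library were not simulated, so that run does not bear on them. Tables and plots used Python 3.11.15, numpy 2.4.6, pandas 2.3.3 and matplotlib 3.10.9.

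The 10 markers and all lists were chosen with earlier results of these data known. Named were all 10 markers, from the further deep layer list the 6 genes with the smallest p between the strains under vehicle and the 3 with the smallest for ASIV in BTBR, the 4 relatives with the highest mean FPKM, and 2 genes with the highest mean FPKM of each list of cell type markers, some of which are not reported here. Genes listed by name where a count is broken down, and those chosen for their order of libraries, were named after their values were seen. Alternatives changed the pseudocount, the filter, the scaling, the model, the replicate block and the libraries used.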

Additional observations from a re-analysis of the deposited data

How the results depend on the processing

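Of 1560 values of single genes under the alternatives, 1485 kept direction and side of the threshold, 38 lost the call, 5 gained it and 32 changed sign. Fits that left out 1 library gave 0 to 2 called markers between the strains under vehicle (0 to 1 higher, 0 to 1 lower) and 1 to 3 for ASIV in BTBR (1 to 2 higher, 0 to 1 lower). For ASIV in BTBR 1 marker was called, 0 of them lower, in the fit on the groups compared alone, with quantile normalization and after rescaling without mitochondrial genes. That rescaling also left 1 call, 0 of them higher, between the strains under vehicle. Between the strains under vehicle, Fezf2 was 0.04 when rescaled to TPM, against -0.01. The causes were not tested.

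Signs changed when 1 library was left out, with these lowest and highest log2 differences. For BTBR ASIV against BTBR vehicle they were -0.89 and 0.07 for Ccn2, -0.18 and 0.42 for Crym, -0.06 and 0.33 for Fezf2, and -0.57 and 0.17 for Nxph3. For BTBR ASIV against C57 ASIV they were -0.61 and 0.13 for Ccn2, -0.25 and 0.35 for Crym, -0.37 and 0.03 for Fezf2, -0.01 and 0.29 for Syt6, and -0.2 and 0.06 for Tbr1. For BTBR vehicle against C57 vehicle they were -0.18 and 0.15 for Fezf2, and -0.3 and 0.12 for Nxph4. For C57 ASIV against C57 vehicle they were -0.05 and 0.2 for Foxp2, and -0.07 and 0.17 for Tle4. For the interaction they were -0.12 and 0.18 for Bcl11b, -0.35 and 0.05 for Fezf2, -0.02 and 0.36 for Foxp2, and -0.3 and 0.11 for Nxph4.

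Samples of the same replicate number in different groups correlated at -0.17 to 0.28, with 8 of 18 pairs over 0.1. Pairs of unlike number were not set beside them, so this cannot decide whether the numbers pair the libraries. The labels state no pairing. With the replicate block the called markers stayed at 2, 0, 2, 0 and 0 over the 5 tests. Over all genes, ASIV in BTBR gave 2258 calls in the fit on the groups compared alone, against 3954, and leaving out 1 library gave 99 to 644 calls between the strains under ASIV, against 344, and 1166 to 2195 for the interaction, against 1939. The interaction calls split into 1085 higher and 763 lower after rescaling without mitochondrial genes, against 939 higher and 1000 lower. Depth limits Nxph4 most, at 71 to 149 fragments per library.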

Other observations

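The counts below stand beside 43.1% of all tested genes called between the strains under vehicle and 29.1% called for ASIV in BTBR, and nothing particular to a list is read from them. Among excitatory neuron genes in general, Nrgn (neurogranin) was higher in BTBR vehicle than in C57 vehicle (0.56 ± 0.14, log2 difference and SE) and lower in BTBR ASIV than in BTBR vehicle (-0.93 ± 0.14), while Camk2a, a calcium-dependent kinase, went the other way (-0.66 ± 0.12 and 0.52 ± 0.12). Of 7 such genes 1 was higher and 3 lower between the strains under vehicle, with a median of -0.06, and 1 was higher and 2 lower for ASIV in BTBR, with a median of -0.25. Of 8 general neuron genes 0 were higher and 3 lower under vehicle, with a median of -0.23. Snap25, which acts in the fusion of synaptic vesicles with the cell membrane, was among them (-1.08 ± 0.17), and the tubulin Tubb3 was not called (-0.13).

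Of 9 inhibitory neuron genes 3 were higher and 1 lower in BTBR vehicle than in C57 vehicle, with a median of -0.11, and 2 were higher and 2 lower for ASIV in BTBR, with a median of 0.23. Sst, the somatostatin precursor, stood at 1.43 ± 0.17 and -1.11 ± 0.17 in these comparisons. Of 8 astrocyte genes 1 was higher and 2 lower under vehicle and 1 was higher and 1 lower for ASIV in BTBR; Aldoc stood at -0.66 ± 0.13 and 0.63 ± 0.13, and Slc1a2 at -0.32 under vehicle. Of 8 oligodendrocyte genes 2 were higher and 0 lower under vehicle, and Mbp (-0.05) was not called. Of 8 microglial genes 1 was higher and 3 lower under vehicle, with C1qa at 0.29 and C1qb at -0.08. Of 10 endothelial, mural and meningeal genes tested 2 were higher and 2 lower under vehicle, with the tight junction gene Cldn5 at 0.66 ± 0.15 and Rgs5 at -0.13. The part of these cells in the deep layer results was not tested.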
